A study of Mus musculus with 8 samples.

Results

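Mouse macrophages given melatonin for 1 h and then lipopolysaccharide (LPS) for 1 h were set against macrophages given the same LPS without melatonin, to compare the first wave of the LPS response. The comparison used 2 of the 8 arrays of the series, 1 on each side, chosen by their titles. A gene was kept if either array showed its probe well above background, which left 15774 genes, and 14042 of them met that mark on both arrays. RAW264.7 is an established, virus-transformed mouse macrophage line. Cells stood in RPMI1640 medium with serum, the melatonin arm received 1 mM melatonin for 1 h before LPS, the other arm received no pretreatment, and LPS from Escherichia coli was given at 100 ng/ml for 0, 1, 3 or 5 h. No vehicle for melatonin is named, and whether melatonin stayed in the medium during LPS is not given. Each condition was 1 array of total RNA labelled with Cy3, so every difference below is a value without a test, and the spread between cultures is unknown.

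LPS is sensed by TLR4 with its co-receptors CD14 and MD-2, which signals through MyD88 and TRIF to the MAP kinases, NF-kB and IRF3. Within the first hour these routes switch on primary response genes, whose transcription needs no new protein: immediate early transcription factors, inhibitors of the same pathways, and then cytokines and chemokines. Melatonin is the pineal hormone, made from tryptophan and known both for its receptors and as an antioxidant at high concentration.

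Levels are given as log2 of the processed signal minus the 75th percentile of the array, so that a level of 0 is the brightness of that percentile. A difference is the level on the melatonin array minus the level on the array without melatonin, and a difference of 1 is 2-fold. No replicate exists, and the only error that could be read from the arrays was that between spots of 1 probe. Their SD was 0.058 on the melatonin array and 0.069 on the array without melatonin, over 282 and 285 repeated probes, and it covers spot noise only. All 4 melatonin arrays lay in 1 row of the slide and the 4 others in the other row, so melatonin and slide row cannot be told apart. For genes that were well above background on only 1 array, the fold is a lower bound ("at least"), taken against the higher of the dim probe's own signal and the lowest signal well above background on that array.

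For 3 of the 4 melatonin arrays the label field for treatment gives a later LPS time than the title, the source name and the description: 1 h for the array titled Melatonin, 3 h for Melatonin LPS1h and 5 h for Melatonin LPS3h. The titles were used, also for the values before LPS and at 3 h below. Over 1429 genes that moved at least 4-fold at any time of LPS in the arm without melatonin, with each gene centred within its arm, the array titled Melatonin LPS1h correlated at 0.746 with the array at 1 h without melatonin and at -0.627 with the array at 3 h. The array titled Melatonin correlated at 0.921 with the array without LPS and at 0.487 with that at 1 h, and the array titled Melatonin LPS3h correlated at 0.797 with the array at 3 h and at 0.686 with that at 5 h. These genes share arrays and are not independent.

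Across all genes, 745 were at least 2-fold higher with melatonin at 1 h (4.72% of 15774) and 781 were at least 2-fold lower (4.95%). Many of these were bright on 1 array only, 416 on the melatonin array and 532 on the array without it. Among the 14042 genes well above background on both arrays, 329 were at least 2-fold higher (2.34%) and 249 at least 2-fold lower (1.77%). The median difference of all genes was -0.07. The spread of the differences was wider among dim genes, with an SD of 0.61 for mean levels below -2 and 0.29 for levels of 4 or more, so a difference of given size stood further from the rest in a bright gene.

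**Figure D1:**
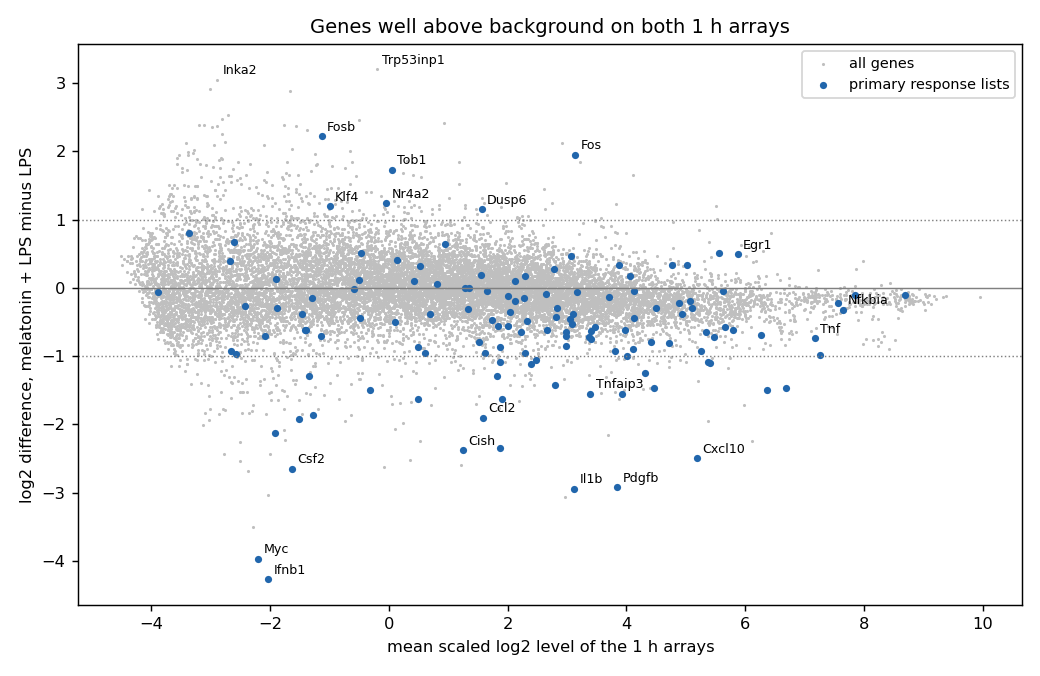
Difference between the melatonin array and the array without melatonin at 1 h of LPS (y, log2) against the mean scaled log2 level of the 2 arrays (x), for the 14042 genes well above background on both. Blue points are members of the primary response lists and dotted lines mark 2-fold; Ifnb1 and Myc lie lowest, at -4.27 and -3.97, and Fosb and Fos are the highest of the blue points, at 2.22 and 1.95.

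The primary response was described with 10 gene lists holding 159 genes, of which 141 passed the filter, 133 of them on both arrays. The lists go by function, and their members are called primary genes below for short. Il6, named below as a secondary gene, is among them. At 1 h of LPS, 91 of the 141 had risen at least 2-fold in either arm. Whether each member needs new protein was not tested. Of the 141, 7 were at least 2-fold higher with melatonin and 36 at least 2-fold lower, against 4.72% and 4.95% of all genes. These counts use each probe's own signal and include 7 members that were bright on 1 array only, of which Socs2, Ccl17 and Ccl22 have bounds under 2-fold. Of the 133 measured on both arrays, 6 were higher and 30 lower, against 2.34% and 1.77% of all such genes. The lists were chosen with earlier results of these data known, which can by itself raise such counts above the share of all genes. The median difference was -0.57 over the 141 genes and -0.53 over the 133 measured on both arrays. Transcription factors, MAP kinase phosphatases and mRNA decay factors lay near the median of all genes, whereas NF-kB regulators, cytokines, growth factors and chemokines lay below it. By the probe reported for each gene, no cytokine, growth factor, chemokine, enzyme or activation marker on the lists was 2-fold higher. Another probe gave 1.18 for Il15 and 1.17 for Itgav.

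**Figure D2:**
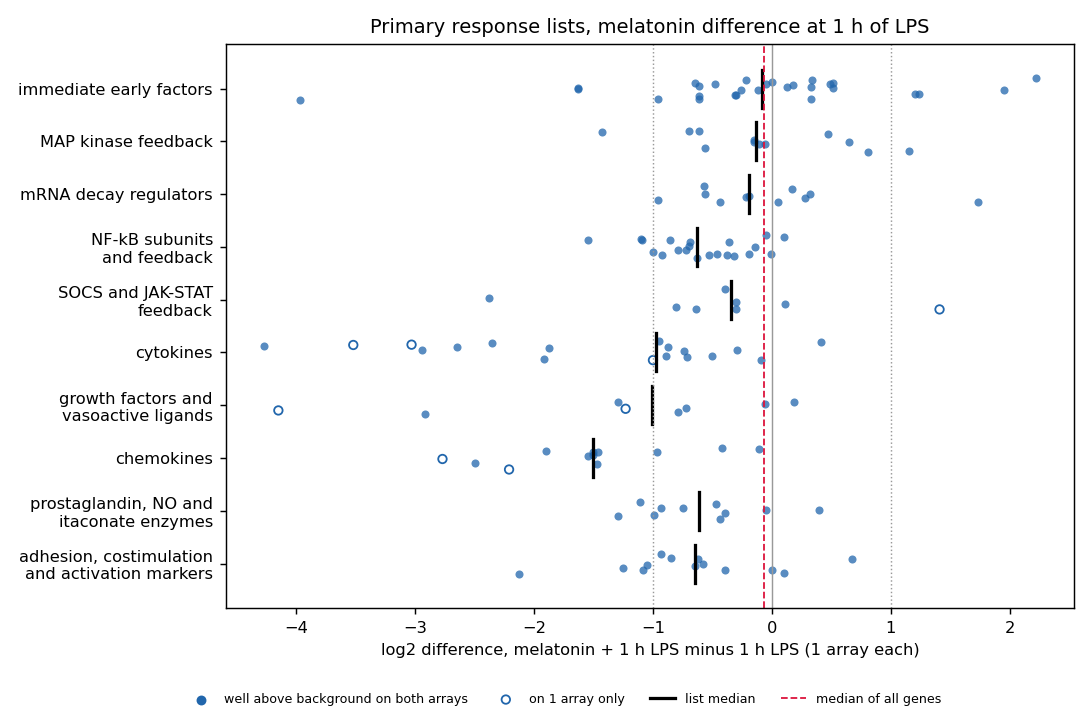
Difference at 1 h of LPS, melatonin minus no melatonin (x, log2), for each member of the 10 primary response lists (rows). Filled points were well above background on both arrays, open points on 1; black bars are list medians and the dashed line is the median of all genes, -0.07. Chemokines have the lowest list median, -1.50, and immediate early factors lie on both sides of 0.

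Promoter sequences are shown for 6 members of the primary response, chosen with their differences known, as examples from either side: Fos and Fosb, which were higher with melatonin, and Cxcl10, Cxcl2, Ifnb1 and Il1b, which were lower. Each line holds the 250 bases before the transcription start, 5′ to 3′ on the strand of the gene, from RefSeq with build GRCm38.p6. Capitals mark matches, on either strand, to the NF-kB consensus, the CArG box of serum response factor, the cAMP response element TGACGTCA, the AP-1 element TGANTCA or the interferon-stimulated response element GAAANNGAAA.
Fos: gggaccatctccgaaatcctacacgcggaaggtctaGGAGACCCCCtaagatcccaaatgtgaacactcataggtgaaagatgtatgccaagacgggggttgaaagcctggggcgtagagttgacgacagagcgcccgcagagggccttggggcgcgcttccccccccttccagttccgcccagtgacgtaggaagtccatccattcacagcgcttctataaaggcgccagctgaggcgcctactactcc
Fosb: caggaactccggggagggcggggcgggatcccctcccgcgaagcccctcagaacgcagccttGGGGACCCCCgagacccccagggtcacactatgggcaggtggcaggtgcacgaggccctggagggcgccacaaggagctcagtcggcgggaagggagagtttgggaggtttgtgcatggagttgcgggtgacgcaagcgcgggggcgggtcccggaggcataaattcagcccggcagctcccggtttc
Cxcl10: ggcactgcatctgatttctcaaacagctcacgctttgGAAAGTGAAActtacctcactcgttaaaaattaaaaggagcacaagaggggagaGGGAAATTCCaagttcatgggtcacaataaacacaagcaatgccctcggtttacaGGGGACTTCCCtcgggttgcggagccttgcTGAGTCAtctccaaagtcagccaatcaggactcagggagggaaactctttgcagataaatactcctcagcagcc
Cxcl2: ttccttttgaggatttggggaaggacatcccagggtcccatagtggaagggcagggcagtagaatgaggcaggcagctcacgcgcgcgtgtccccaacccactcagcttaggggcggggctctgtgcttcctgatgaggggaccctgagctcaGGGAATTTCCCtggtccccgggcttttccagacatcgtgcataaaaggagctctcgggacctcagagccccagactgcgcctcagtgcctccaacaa
Ifnb1: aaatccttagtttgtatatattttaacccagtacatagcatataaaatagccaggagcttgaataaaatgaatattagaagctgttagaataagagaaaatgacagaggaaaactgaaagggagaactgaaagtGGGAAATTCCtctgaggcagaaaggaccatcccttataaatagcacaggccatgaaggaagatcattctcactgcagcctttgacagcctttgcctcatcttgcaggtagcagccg
Il1b: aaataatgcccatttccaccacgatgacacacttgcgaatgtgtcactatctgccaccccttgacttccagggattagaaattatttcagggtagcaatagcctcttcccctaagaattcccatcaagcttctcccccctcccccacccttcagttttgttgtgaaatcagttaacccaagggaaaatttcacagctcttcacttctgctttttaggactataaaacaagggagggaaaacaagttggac
The windows lie at chr12:85473640-85473889 (plus strand) for Fos, chr7:19310046-19310295 (minus strand) for Fosb, chr5:92348890-92349139 (minus strand) for Cxcl10, chr5:90903649-90903898 (plus strand) for Cxcl2, chr4:88522795-88523044 (minus strand) for Ifnb1 and chr2:129371140-129371389 (minus strand) for Il1b.

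The windows other than that of Il1b held a match to the NF-kB consensus, at -214 in Fos, -188 in Fosb, -116 in Ifnb1, -97 and -96 in Cxcl2, and at -159, -104 and -103 in Cxcl10, counted from the start site. The window of Il1b held no match to any of these motifs, and those of Csf2, Tnfsf15 and Edn1, which were also lower, held none to the NF-kB consensus. The pairs one base apart are overlapping readings of 1 stretch. Cxcl10 also held an AP-1 match at -74 and an interferon-stimulated response element at -213. Over all promoter windows in the table, 8.23% of genes had an NF-kB match, 7.82% an AP-1 match, 3.46% an interferon-stimulated response element, 1.77% a cAMP response element and 1.62% a CArG box. Among the primary members at least 2-fold lower with melatonin, 27 of 36 had a window and 8 of these held an NF-kB match. For the members at least 2-fold higher the count was 2 of 6, and for the members within 2-fold it was 23 of 76. NF-kB matches were thus found in all 3 classes, and a match is only a string of letters in this window.

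Immediate early factors are transcription factors induced within minutes by MAP kinases acting on serum response factor and its partners. All 28 listed members were well above background on both arrays, and 4 were at least 2-fold higher with melatonin and 3 lower, with a median difference of -0.08. Fos, a subunit of the AP-1 dimer, had a level of 4.11 with melatonin and 2.16 without it at 1 h, against 0.68 and 0.48 before LPS. It was therefore 3.87-fold higher in the melatonin arm at 1 h, and its LPS step was 3.43 with melatonin and 1.68 without. Fosb, its close relative, stood at -0.02 with melatonin and -2.24 without it at 1 h, a 4.65-fold difference, and at -3.67 and -3.30 before LPS. Before LPS both genes differed by less than 2-fold between the arms.

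The other 2 higher members behaved differently over the LPS step. Klf4, a zinc finger factor linked to alternative macrophage activation, had -0.39 with melatonin and -1.60 without it at 1 h, after -0.66 and -0.46 before LPS, so the gap came with a decline of 1.14 in the arm without melatonin. Nr4a2, an orphan nuclear receptor, had 0.58 with melatonin and -0.67 without it, and a gap of 0.93 was already present before LPS.

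Several immediate early genes that responded strongly to LPS were within 2-fold of each other in the 2 arms. Egr1, a zinc finger factor and textbook target of ERK signalling, had 6.12 with melatonin and 5.63 without it, and its LPS steps were 5.55 and 5.64. Egr2 had 4.04 with melatonin and 3.71 without, Jun 5.82 and 5.31, and Nr4a1, a nuclear receptor of the same family as Nr4a2, 5.18 and 4.85. Junb, Ier2, Ier3 and Ier5 differed by -0.22, 0.18, -0.30 and -0.05, and a second probe of Ier2 gave 1.49. All of these genes were higher after LPS in both arms, by at least 1.87 on the log2 scale in Ier5 and more in the others.

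The 3 lower members, each by its brightest passing probe, were Myc, Atf3 and Maff. Nr4a3 differed by -0.26, and its second probe gave -3.40. Myc, which drives growth and biosynthesis, had -4.18 with melatonin and -0.21 without it at 1 h and was not well above background on either array before LPS. Its level on the melatonin 1 h array was close to -4.35, the lowest level well above background there. The difference of -3.97 came from 1 of its 2 probes, and the other probe gave -1.07. Atf3, a repressor of inflammatory genes, had 1.09 with melatonin and 2.72 without it at 1 h, after -2.01 and -1.13 before LPS. Maff, a small MAF protein, had -0.33 with melatonin and 1.30 without it at 1 h. Before LPS it was well above background only without melatonin, and at least 1.83-fold lower with it. Its LPS step with melatonin was at least 15.9-fold, or 29.2-fold by the dim probe's own signal, and without melatonin it was 26.8-fold.

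MAP kinase feedback genes encode phosphatases (DUSP) and Sprouty or SPRED proteins that damp MAP kinase signalling. Of 14, 12 passed the filter, 1 was 2-fold higher and 1 lower by the probe reported, and the median difference was -0.13. Another probe gave 1.59 for Dusp14 and -1.15 for Dusp8. Dusp1, the phosphatase that limits p38 and JNK after LPS, had 3.30 with melatonin and 2.83 without. Dusp2 had 7.79 with melatonin and 7.90 without, and Dusp5 3.15 and 3.20, after LPS steps of 4.65 to 5.47 over both genes and arms. Dusp6, which acts on ERK, had 2.14 with melatonin and 0.99 without it, a difference of 1.15 that was 0.02 before LPS, and its level declined by 0.80 over the LPS step without melatonin. Dusp16 went the other way, with 2.08 with melatonin and 3.51 without.

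Regulators of mRNA decay shorten the life of cytokine transcripts. All 11 were measured, 1 was 2-fold higher and none was 2-fold lower. That gene was Tob1, an adaptor of the CCR4-NOT deadenylase, at 0.91 with melatonin and -0.82 without, and the gap was already 1.25 before LPS. Zfp36, the AU-rich element binding protein tristetraprolin, had 5.37 with melatonin and 5.94 without, and Zc3h12a, the RNase regnase-1, had 1.72 and 2.28. These differences of -0.57 and -0.56 were below 2-fold.

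Many NF-kB subunits and feedback regulators are themselves NF-kB targets. Of the 21 listed here, 10 rose at least 2-fold with LPS at 1 h with melatonin and 15 without it. All 21 were measured on both arrays, 20 lay below 0, 4 were at least 2-fold lower and none was 2-fold higher, and the median difference was -0.63. Tnfaip3, the ubiquitin-editing inhibitor A20, had 2.62 with melatonin and 4.17 without it at 1 h, after -0.57 and -0.43 before LPS. Its LPS step was 3.19 with melatonin and 4.60 without. Traf1, a TNF receptor adaptor, and Bcl3, an IkB-family coactivator, differed by -1.10 and -1.09. Rel, which encodes the subunit c-Rel, stood at the 2-fold mark, with 3.51 with melatonin and 4.52 without. Traf1 and Rel fell short of 2-fold with quantile normalization, and Rel also with normexp background correction and with median scaling.

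Not every member of this list was lower to that degree. Nfkbia, which encodes the inhibitor IkBα and is among the fastest NF-kB targets, had 7.48 with melatonin and 7.80 without, and its LPS steps were 2.61 and 2.74. Nfkbie differed by -0.05 and Cyld by 0.10, but Cyld hardly moved with LPS, by 0.03 with melatonin and -0.04 without. Nfkbiz, the coactivator of secondary genes such as Il6, had 4.02 with melatonin and 4.82 without, and Nfkb1 and Rela differed by -0.92 and -0.38.

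SOCS proteins and CISH are inhibitors of cytokine receptor signalling. Cish had 0.06 with melatonin and 2.44 without it at 1 h, after -3.94 and -3.02 before LPS, a difference of -2.38. Socs3, which acts on the IL-6 receptor, had 4.31 with melatonin and 5.12 without. Socs2 was well above background at 1 h only on the melatonin array, at least 1.49-fold higher there. Of the 8 measured, Socs1 and Socs2 were the only members above 0.

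Cytokines held the widest single difference of the 10 lists, that of Ifnb1. Of 21, 18 passed the filter, 15 of them on both arrays, 8 were at least 2-fold lower, 6 of these on both arrays, and none was 2-fold higher, with medians of -0.97 over the 18 and -0.89 over the 15. Ifnb1, the type I interferon made through TRIF and IRF3, had -4.17 with melatonin and 0.10 without it at 1 h, a 19.3-fold lower level in the melatonin arm, and was not well above background on either array before LPS. Its level on the melatonin array was close to -4.35, the lowest level well above background there. Il1b, the precursor of interleukin-1β, had 1.64 with melatonin and 4.59 without it, after -1.83 and -1.11 before LPS. Its LPS step was 3.48 with melatonin and 5.70 without, and its 3 probes ranged from -3.77 to -2.93.

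The colony-stimulating factors were lower as well. Csf2, which encodes GM-CSF, had -2.95 with melatonin and -0.30 without it, and Csf3, which encodes G-CSF, had -2.47 and -0.55. Neither was well above background before LPS, so the LPS step was at least 2.58-fold with melatonin and at least 20.9-fold without it for Csf2, and at least 3.60-fold and at least 17.6-fold for Csf3. Il6 and Il1a were well above background at 1 h only without melatonin, at least 3.94-fold and at least 3.38-fold lower with it. Tnfsf15, a TNF-family ligand, differed by -2.35, and Il1rn, the secreted antagonist of interleukin-1, by -1.87 after -1.80 before LPS.

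Tnf, the archetypal early cytokine of macrophages, moved less. It had 6.80 with melatonin and 7.55 without it at 1 h, after 2.57 and 2.75 before LPS, and the difference of -0.74 was under 2-fold. Osm, which encodes oncostatin M, had 1.81 with melatonin and 2.76 without. Lif, a relative of Osm, differed by -0.29, and Il15 by 0.41, which was the only cytokine difference above 0. Another probe of Il15 gave 1.18. Il12b was well above background without melatonin only, with a bound of at least 1.28-fold. Il10, Il12a and Il23a did not pass the filter.

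Growth factors and vasoactive ligands had 8 of 12 members measured, 6 of them on both arrays, and 4 were at least 2-fold lower, 2 of these on both arrays. The median difference was -1.01 over the 8 and -0.76 over the 6. Pdgfb, a platelet-derived growth factor chain, had 2.38 with melatonin and 5.30 without it at 1 h, after -0.52 and 0.83 before LPS. Edn1, which encodes the vasoconstrictor endothelin-1, was well above background at 1 h only without melatonin, with a level of -1.10, at least 9.53-fold lower with melatonin. F3, tissue factor, was likewise bright only without melatonin, at a level of -3.18, and at least 2.24-fold lower with it. With normexp background correction F3 was under 2-fold. Areg, an EGF receptor ligand, differed by -1.29, while Vegfa and Hbegf differed by 0.19 and -0.06.

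Chemokines, which recruit leukocytes, had the lowest median of the 10 lists. Of 17, 12 passed the filter, 10 of them on both arrays, and all 12 lay below 0. Of the 10, 7 were at least 2-fold lower, and the other two of the 12 are given below by their bounds. The median was -1.50 over the 12 and -1.48 over the 10. Cxcl10, a ligand of CXCR3, had 3.93 with melatonin and 6.43 without it at 1 h, after -1.64 and -0.25 before LPS. Cxcl2, a neutrophil attractant, had 3.15 with melatonin and 4.70 without, and from arrays not well above background before LPS its step was at least 177-fold with melatonin and at least 671-fold without. A chemokine could thus be strongly induced in both arms and still be lower in one.

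The CC chemokines differed in when the gap appeared. Ccl2, the monocyte attractant MCP-1, had 0.63 with melatonin and 2.53 without it at 1 h and -1.24 and 0.84 before LPS, so the gap of -1.90 at 1 h was no wider than the -2.08 before LPS. Ccl4 and Ccl9 also had gaps of -1.22 and -1.27 before LPS, against -1.46 and -1.47 at 1 h. Ccl3 had 5.61 with melatonin and 7.11 without it at 1 h, a difference of -1.50 after -0.74 before LPS. Cxcl16 differed by -1.50 after -0.41. Ccl17 and Ccl22 were bright only without melatonin, with bounds of at least 1.47-fold and at least 1.12-fold. Ccl5 and Ccl6 differed by -0.42 and -0.97.

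Enzymes of prostaglandin, nitric oxide and itaconate synthesis had 10 of 11 members measured, 2 of them at least 2-fold lower, with a median of -0.61. Ptgs2, the inducible cyclooxygenase, had 1.83 with melatonin and 2.94 without it at 1 h, after -2.96 and -2.84 before LPS. Nos2, the inducible nitric oxide synthase, had 1.18 with melatonin and 2.47 without, and its LPS steps were 0.65 and 1.30. Acod1, which makes itaconate, had 6.77 with melatonin and 7.76 without, a difference of -0.99 that stood just short of 2-fold.

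Adhesion, costimulation and activation markers had 13 of 16 members measured, 4 of them at least 2-fold lower and none 2-fold higher, with a median of -0.65. Cd69, an early activation antigen, had -2.98 with melatonin and -0.85 without it at 1 h and was not well above background before LPS, and its second probe gave a difference of -0.87. Marcksl1, Cd83 and Cd44 differed by -1.25, -1.08 and -1.05, of which Cd83 and Cd44 fell short of 2-fold with quantile normalization. Icam1, the integrin ligand, had 5.01 with melatonin and 5.66 without, and Cd274, which encodes PD-L1, was the highest member, at 0.67. Itgav differed by 0.10, and another of its probes gave 1.17.

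The step from 0 to 1 h of LPS was then set side by side in the 2 arms, which share no array with each other. Across all 15774 genes, 702 were at least 2-fold higher after LPS with melatonin (4.45%) and 802 without it (5.08%). Of the 141 primary genes, 76 were at least 2-fold higher after LPS in both arms, 15 only without melatonin and 0 only with it. Over the 91 genes the median step was 2.58 with melatonin and 3.08 without it, and the step was smaller with melatonin for 73 of them. All 91 had passed 2-fold without melatonin, and some, such as Il6, Il1a and Edn1, passed the filter through that arm alone, so this choice of genes itself favours a smaller step with melatonin.

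**Figure D3:**
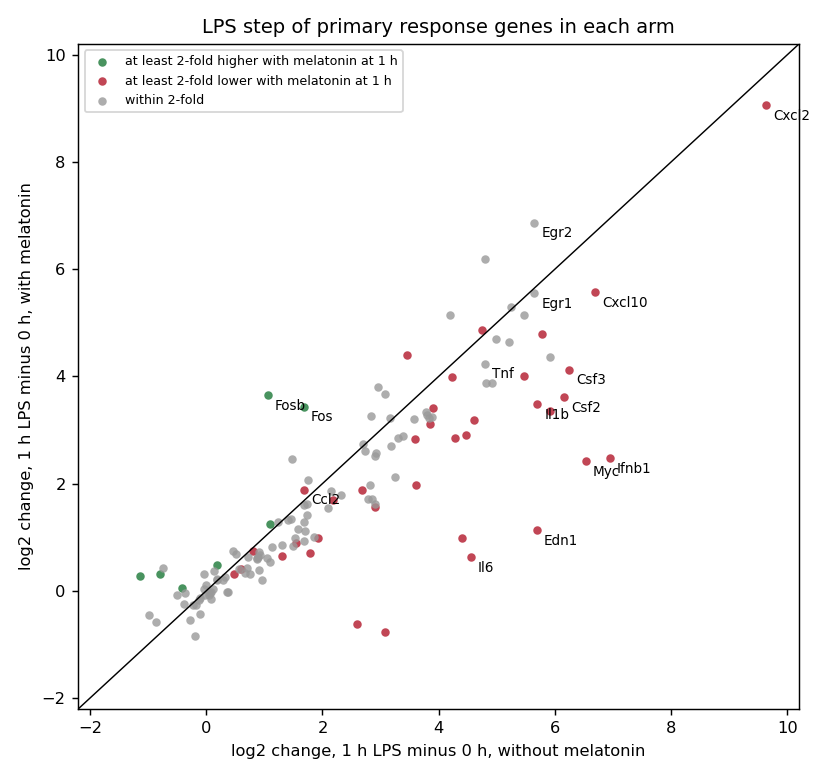
Log2 change from 0 to 1 h of LPS with melatonin (y) against the same change without melatonin (x) for the 141 primary response genes; the line marks equal steps. Points under the line, such as Ifnb1, Myc, Edn1 and Il6, stepped less with melatonin, and Fos and Fosb lie above it. Points that were not well above background at 0 h show the dim array's own signal.

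Part of the difference at 1 h was already there before LPS. Of the 30 primary genes that were at least 2-fold lower at 1 h and well above background on both arrays, 22 were well above background on both arrays before LPS. Of these 22, 7 were then already at least 2-fold lower: Ccl2, Ccl4, Ccl9, Cxcl10, Il1rn, Pdgfb and Tnfsf15. Another 6 of the 30 were not well above background on either array before LPS, namely Cd69, Csf2, Csf3, Cxcl2, Ifnb1 and Myc. For the other genes of the 22, which include Il1b, Tnfaip3, Ptgs2 and Atf3, the gap before LPS was under 2-fold. Of the 6 higher genes measured on both arrays, Tob1 alone was 2-fold higher before LPS.

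The lower genes mostly stayed lower afterwards. At least 2-fold lower levels with melatonin were seen for 20 of the 30 genes at 3 h and for 16 at 5 h, against 3.78% and 2.96% of all genes measured at 1 h, and against 53% and 39.4% of all 249 lower genes. Il1b differed by -2.23 at 3 h and -1.41 at 5 h, Ifnb1 by -3.36 and -2.64, Csf2 by -3.39 and -2.73, and Ccl2 by -3.05 and -2.36. Cxcl10 differed by -1.28 at 3 h and -0.61 at 5 h and Cish by -0.97 and -0.39, so those gaps were widest at 1 h. Fos differed by -0.72 at 3 h and -0.91 at 5 h and Fosb by 0.30 and -0.20, so neither was 2-fold higher after 1 h. Klf4 and Tob1 were still higher, by 2.33 and 2.97 at 3 h.

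**Figure D4:**
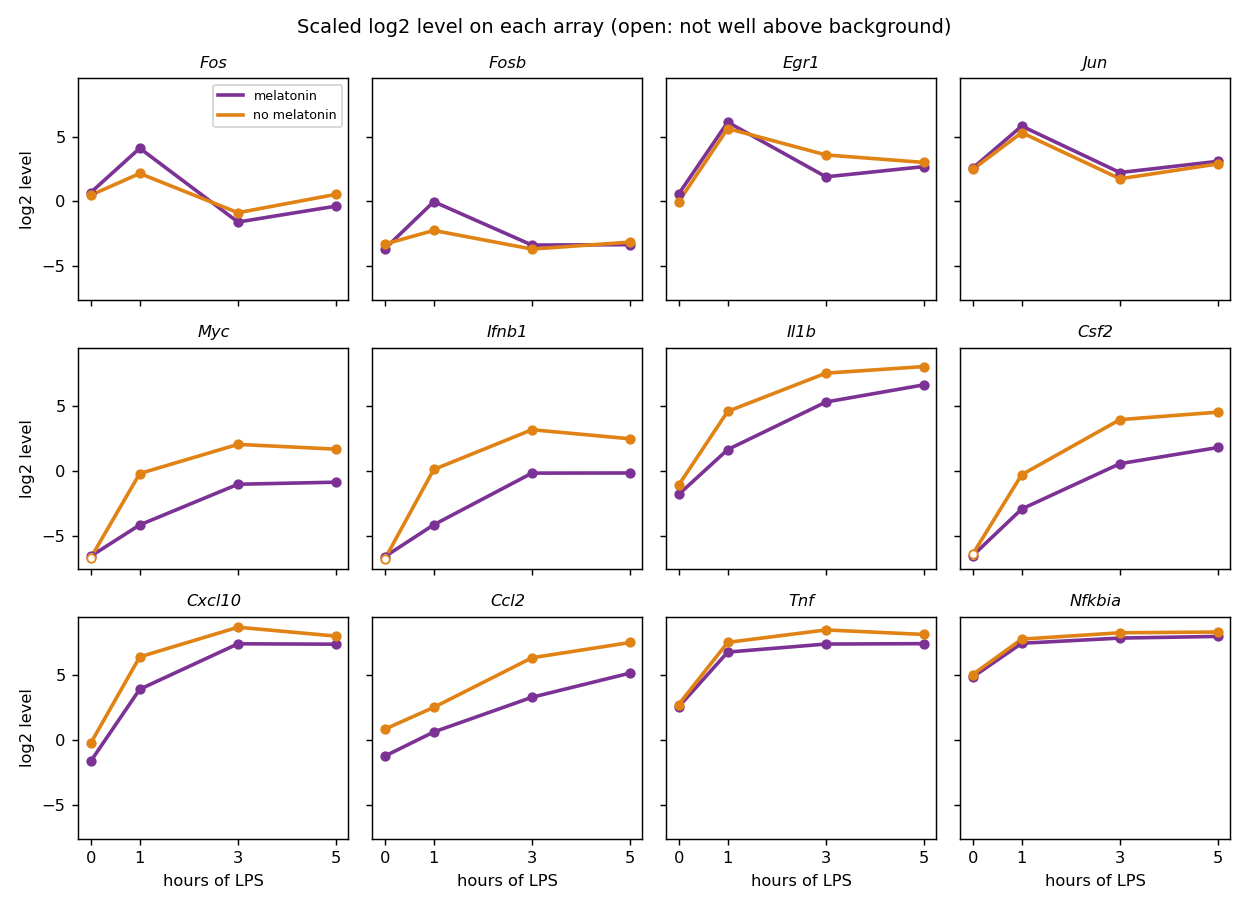
Scaled log2 level (y) against hours of LPS (x) for 12 primary response genes with melatonin (purple) and without it (orange), 1 array per point; open points were not well above background. Fos and Fosb peak higher with melatonin at 1 h, and Jun and Nfkbia run close together. Egr1 does so at 1 h but lies at 1.90 with melatonin and 3.59 without it at 3 h. Myc, Ifnb1, Il1b, Csf2, Cxcl10 and Ccl2 lie lower with melatonin at 1, 3 and 5 h, and Il1b, Cxcl10 and Ccl2 also before LPS.

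**Figure D5:**
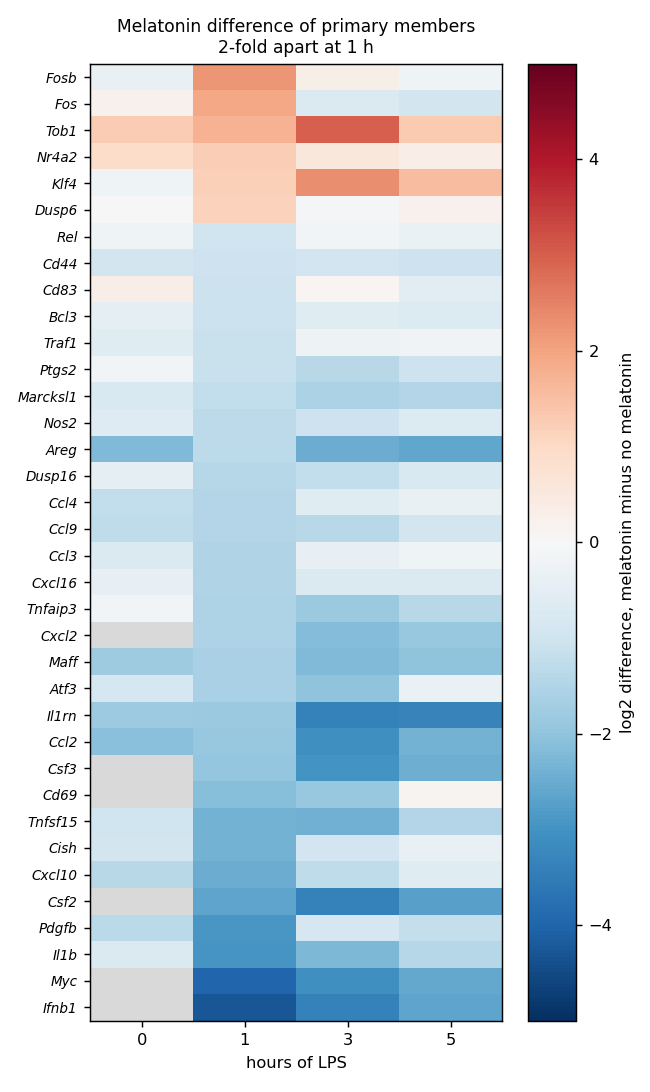
Log2 difference, melatonin minus no melatonin, at 0, 1, 3 and 5 h of LPS (columns) for the 36 primary response genes at least 2-fold apart at 1 h and well above background on both 1 h arrays (rows). Red is higher and blue lower with melatonin, and grey marks times at which neither array was well above background; the 7 genes already 2-fold lower at 0 h include Ccl2 and Il1rn.

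Beyond the primary lists, the genes of TLR4 signalling were described. All 30 genes of the receptor complex and its signalling chain were measured on both arrays, with a median difference of -0.03. By the probe reported, 1 gene was past 2-fold, and another probe gave -1.56 for Irak2 and 1.09 for Map2k3. Tlr4 differed by -0.58, with 3 probes that ranged from -2.08 to 0.43, Cd14 by -0.75, Ly96, which encodes MD-2, by 0.04 and Myd88 by -0.13. The gene past 2-fold was Tlr2, itself induced by LPS, at 4.25 with melatonin and 5.26 without, and it was under 2-fold with quantile normalization.

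Interferon response genes, many of them a secondary wave that follows secreted interferon, had a median difference of 0.08 at 1 h over 29 genes. Of the 29, 17 lay above 0 and 12 below. By the probe reported for each gene, none was 2-fold lower and 2 were at least 2-fold higher. Those were Irf1, at 1.67 with melatonin and 0.35 without, and Ddx60, at -0.99 and -2.61. A second probe gave 0.80 for Irf1 and 0.40 for Ddx60, and a second probe of Irf8 and of Ifih1 gave -1.40 and -1.25. Ifit1, Ifit2, Mx1 and Usp18 differed by -0.17, 0.26, 0.94 and 0.08 at 1 h and by -2.84, -3.39, -2.48 and -2.24 at 3 h. Over the LPS step to 1 h, 4 of the 29 rose at least 2-fold without melatonin and 1, Ddx60, with it. The 4 were Rsad2, Oasl1, Isg15 and Ifih1, which differed by -0.53, -0.89, -0.60 and -0.85 at 1 h.

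Targets of p53 included 4 of 14 genes at least 2-fold higher with melatonin and none 2-fold lower, with a median of 0.52 at 1 h and 0.90 before LPS. Trp53inp1, a p53-induced stress protein, had 1.40 with melatonin and -1.80 without it at 1 h, the widest higher difference of all genes measured on both arrays, and 1.62 and -1.13 before LPS, and its second probe gave a difference of 1.64 at 1 h. Phlda3 differed by 1.84 at 1 h and 1.63 before LPS, Ccng1 by 1.06 and 0.99, and Mdm2 by 1.01 and 0.89. Cdkn1a, the cell cycle inhibitor p21, differed by 0.21 and Bax by -0.14. The gaps of the 4 genes were of about the same size without LPS.

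At least 2-fold higher were 1 of 19 NRF2 targets, 1 of 15 ATF4 targets and 2 of 11 heat shock chaperones, against 4.72% of all genes. Among genes well above background on both arrays the counts were 1 of 18, 1 of 15 and 2 of 11, against 2.34%. Srxn1, a sulfiredoxin under NRF2, had 4.93 with melatonin and 3.28 without it, after 3.18 and 2.47 before LPS. Hmox1 and Gclm differed by -0.17 and 0.53. By the probe reported, Srxn1 was the only NRF2 target of 19 past 2-fold, and another probe gave 1.46 for Pgd and 1.07 for Prdx1. Ddit4, an inhibitor of mTORC1, had 3.98 with melatonin and 1.84 without, and a gap of 1.55 was already present before LPS. It was the only ATF4 target of 15 past 2-fold by the probe reported, and another probe of Nupr1 gave -1.12. The ATF4 list had a median of 0.37, with 11 of the 15 above 0. Of 11 heat shock chaperones, Hspa1b and Dnajb1 were higher by 1.66 and 1.20, after 1.81 and 0.20 before LPS. Cell cycle lists ran slightly lower with melatonin, with medians of -0.56 over 18 G1/S genes and -0.36 over 20 G2/M genes at 1 h and -0.57 and -0.31 before LPS. Of the 22 cholesterol synthesis genes, Hmgcs1 was 2-fold lower, at -1.16 (under 2-fold with quantile normalization), and the median was -0.52. None of 13 clock genes was past 2-fold, and their median was 0.40, with 9 above 0.

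The melatonin receptor genes Mtnr1a and Mtnr1b did not pass the filter, so no level is given for them. Rora, a nuclear receptor once proposed as a melatonin target, was 1.34 higher at 1 h and at least 4.08-fold higher before LPS, at levels close to background, and under 2-fold at 1 h with normexp background correction. The cAMP-linked regulators of G proteins, Rgs16 and Rgs1, differed by -1.34 and -1.28 at 1 h and by -1.59 and -1.29 before LPS, while Rgs2 differed by -0.10 at 1 h. Saa3, which encodes an acute phase protein induced later by LPS, differed by -2.24 at 1 h and -0.63 before LPS. Hp, which encodes haptoglobin, differed by -1.68 at 1 h and -1.69 before LPS, and its level did not rise with LPS in either arm.

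The macrophage line was checked against its markers. Of 15 macrophage identity genes, 14 passed, with a median of -0.34. Lyz2, Csf1r and Cd68 differed by -0.23, -0.18 and -0.41, Cebpa was higher by 1.03 and Fcgr3 was lower by 1.03, and both were under 2-fold with normexp background correction. None of 5 epithelial markers and 1 of 5 fibroblast markers passed the filter. The fibroblast marker was Col1a2, bright only without melatonin and at least 1.99-fold lower with it. Of the 6 T cell markers, Cd3d, Cd3e and Cd4 were above background on both arrays and differed by -0.83, -0.33 and -0.38, and Cd3g was bright on the melatonin 1 h array alone of the 8. Of the B cell markers 2 of 5 passed and of the neutrophil markers 3 of 5, with differences between -0.61 and 0.80. The part of such markers in the primary response was not tested.

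Among all genes well above background on both arrays, the 12 widest lower differences held 5 members of the primary lists, Ifnb1, Myc, Il1b, Pdgfb and Csf2. The others included C630001G18Rik, Il4i1, A430093F15Rik, Bcl6b, Cd5 and Olfr1441, at -3.51 to -2.54. Il4i1, an amino acid oxidase of activated myeloid cells, had 1.44 with melatonin and 4.50 without, after -1.49 and -0.45 before LPS. The 12 widest higher differences held no primary list member. After Trp53inp1 came Inka2, Csrnp2 and Robo3 at 3.05, 2.92 and 2.88, and Gadd45g, a growth arrest protein, had 2.13 with melatonin and -0.28 without. Before LPS, Inka2 was at least 9.86-fold higher and Robo3 was 2.83 higher on the log2 scale.

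The genes 2-fold apart at 1 h overlapped with those at other times, in pairs of arrays that share none with the 1 h pair. Of the 329 higher genes, 34.3% were also 2-fold higher before LPS, against 1.44% of all genes measured at 1 h, 62% at 3 h against 5.82%, and 48.9% at 5 h against 5.96%. Of the 249 lower genes, 41% were also 2-fold lower before LPS, against 1.22%, and 53% at 3 h against 3.78%. The shared slide row applies to every one of these pairs.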

How the data were processed

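Total RNA of RAW264.7 cells was labelled with Cy3 and hybridised to 8 one-colour Agilent arrays on 1 slide, 1 array per condition. Per the file headers, Agilent Feature Extraction 12.0.3.1 made the deposited intensity values (processed signal, mean signal, local background) and flags with probe positions on build mm9. The deposited value table is on a log2 scale, and its sorted values are identical on all 8 arrays, and no source used here names the authors' tool for it.

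Here, log2 of the processed signal was averaged over spots of a probe, leaving out control and outlier spots, and the 75th percentile of each array was subtracted (646.7 to 828.0 in signal units). The share of probes well above background was 47% to 53% over the 8 arrays, and 0 spots were saturated. The number of arrays limits the precision. Of 56605 probes, 32994 were named by RefSeq accession, 10224 by current symbol, 520 by older symbol, 2574 keep the file's name and 10293 are unnamed. Each gene is its brightest passing probe at 1 h. A call is a difference of at least 2-fold. With 1 array a side there is no test. The steps were tested on simulated data, where 200 of 200 changed genes of 15764 were recovered. Genes named are a panel of 34, up to 8 members 2-fold apart per primary list, up to 4 per other list, and the 12 widest each way; a few are not reported here. The members and lists were chosen with earlier results of these data known. Alternatives were normexp (limma 3.58.1), quantile and median scaling, the deposited table, other filters, floors, probe rules, fold thresholds and the treatment labels. Python 3.11.15 and R 4.3.3 were used.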

Additional observations from a re-analysis of the deposited data

Results flagged for a closer look

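For Ddx60 and Irf1 the melatonin difference was at least 2-fold at 1 h and at least 2-fold the other way at a later time, with all arrays of both pairs well above background. Over all genes, of the 329 higher at 1 h on both arrays, 4 were 2-fold lower at 3 h and 11 at 5 h, and of the 249 lower, 2 were 2-fold higher at 3 h and 3 at 5 h, with dim probes at the later time counted at their own signal. Ddx60, an interferon-induced helicase, was 1.62 higher on the log2 scale with melatonin at 1 h and lower at 3 h and 5 h, at -2.65 and -1.44. Irf1, an interferon regulatory factor, was 1.32 higher at 1 h and differed by -1.74 at 3 h. These changes between times were not tested, and a second probe was under 2-fold at 1 h, at 0.40 for Ddx60 and 0.80 for Irf1.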

How the results depend on the processing

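All values rest on 1 array a side, so no result has a replicate check. No paired analysis was possible because no result comes from a test. Of the 85 named genes at least 2-fold apart, every one measured under a given alternative of scaling, filter, floor or probe choice kept its direction, and 73 to 85 were still 2-fold apart where all 85 were given. The count of higher genes, 745, came to 334 with normexp, 329 with the filter on both arrays, 1709 without a filter, 1651 at 1.5-fold and 417 at 3-fold. The count of lower genes, 781, came to 312, 249, 1332, 1811 and 411 under the same settings, and to 444 with a common floor. Setting the array titled Melatonin LPS1h against 3 h without melatonin, as the treatment label has it, gave 1979 higher and 1577 lower genes, and Irf1 and Ddx60 were then lower with melatonin, at 1.67 against 3.31 and -0.99 against 0.49. Keeping genes with a level of at least -2 on 1 of the 2 arrays, a filter chosen after seeing the data, gave 273 higher and 293 lower. With quantile normalization and with the deposited table, list medians were -0.01 and 0.0 for MAP kinase feedback, 0.04 and 0.05 for mRNA decay regulators, -0.45 and -0.44 for NF-kB regulators and -1.34 and -1.33 for chemokines. Averaging all probes of a gene gave 0.03 for mRNA decay regulators and -0.47 for NF-kB regulators. Growth factors came to -0.73 with normexp, -0.76 with the filter on both arrays and -0.58 without a filter, chemokines to -1.37 with normexp, the enzymes to -0.47 without a filter, and activation markers to -0.75 with the added filter. The cause was not tested beyond what the filters do by construction, which is to change the genes counted.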

Other observations

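Some of the genes 2-fold apart at 1 h differed from the other arrays on 1 array only. Among the 329 higher genes, 19 had levels within 1 log2 unit of each other on the other 7 arrays and stood apart on the melatonin 1 h array, for example Srrm4os, Atp2b4 and 1110020A21Rik, and 7 stood apart on the array without melatonin. Among the 249 lower genes, 5 stood apart on the melatonin array and 15 on the array without melatonin, among them C630001G18Rik and Olfr1441. The median level of these genes lay between -2.80 and -2.28, in the dim range. Atp2b4 has a second probe, whose difference was -0.01. Olfr1441, an odorant receptor gene, had -3.77 with melatonin and -1.23 without it at 1 h, and -3.73 and -3.59 before LPS.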
